A study of Mus musculus with 16 samples.

Results

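The genes described here mark GABAergic inhibitory neurons and their main subclasses in the mouse forebrain. The set holds 10 genes, Gad1, Gad2, Slc32a1, Sst, Pvalb, Vip, Npy, Lhx6, Nkx2-1 and Htr3a, which were picked by symbol from the 53801 gene rows of a bulk RNA-seq count table with 16 libraries. The libraries were made from cortical and striatal tissue of 9 mice on a mixed C57BL6/J-129sv background at 10 days of age, with 4 libraries for each tissue and genotype. The control mice were Trrap Fl/+ and the mutant mice, called Trrap-FBΔ, were Trrap Fl/Fl, and both carried the Camk2-Cre transgene, so the controls too had Cre and a floxed allele. With this transgene the study aimed at glutamatergic forebrain neurons. Whether Cre was also active in the cells that express these genes was not measured here. Mice 58, 63 and 64 gave both control tissues, mouse 55 a control cortex only and mouse 65 a control striatum only, while mice 57, 59, 60 and 61 gave both Trrap-FBΔ tissues. The sexes were not balanced, with 2 of 4 females in the control cortices, 1 of 4 in the control striata and 3 of 4 in each Trrap-FBΔ tissue. Between 28743866 and 48761429 reads were counted per library. In bulk RNA of this kind, fewer cells of a type and less RNA per cell cannot be told apart.

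GABAergic neurons make the inhibitory transmitter GABA from glutamate and load it into vesicles for release. In the cortex nearly all of them are local interneurons, born in the medial and caudal ganglionic eminences of the embryonic ventral forebrain, and their subclasses are told apart by the neuropeptides, calcium-binding proteins and receptors they express. In subcortical regions GABA is made by projection neurons as well, so that the general GABAergic genes and the subclass genes are read from partly different cells. Parvalbumin cells mature late, and their marker is still low in the mouse cortex at the age studied here.

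The members fall into 3 roles. The general GABAergic genes are Gad1 (ENSMUSG00000070880, chromosome 2, 70553072 to 70602014) and Gad2 (ENSMUSG00000026787, chromosome 2, 22622205 to 22693874), which encode the GAD67 and GAD65 forms of the GABA-producing enzyme, and Slc32a1 (ENSMUSG00000037771, chromosome 2, 158610767 to 158615748), the vesicular GABA transporter. The subclass genes are Sst (ENSMUSG00000004366, chromosome 16, 23889573 to 23890958), which encodes the peptide somatostatin, Pvalb (ENSMUSG00000005716, chromosome 15, 78191114 to 78206400), the calcium buffer parvalbumin, and Vip (ENSMUSG00000019772, chromosome 10, 5639218 to 5647617), vasoactive intestinal peptide. They also include Npy (ENSMUSG00000029819, chromosome 6, 49822710 to 49829507), neuropeptide Y, and Htr3a (ENSMUSG00000032269, chromosome 9, 48899213 to 48911099), a subunit of the ionotropic serotonin receptor found in interneurons of the caudal eminence. The lineage transcription factors are Nkx2-1 (ENSMUSG00000001496, chromosome 12, 56531958 to 56536908), which sets up the medial eminence and is also used in the hypothalamus, and Lhx6 (ENSMUSG00000026890, chromosome 2, 36081953 to 36105408), which acts downstream of it in migrating and mature interneurons. All positions are on GRCm38. All 10 members passed edgeR's filter on low counts in every comparison. Slc32a1 shares 697 of its 2797 exonic bases with the antisense gene Gm14205, which was kept apart by the stranded counting. Lhx6 shares 104 of its 4805 exonic bases with Gm27953 on the same strand, which stranded counting does not keep apart.

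The start regions of the members were read from RefSeq (GRCm38.p6), which held 9 of the 10. Htr3a had no entry. Those shown belong to the peptide genes Sst and Npy, whose levels moved together across libraries, and to Vip and Pvalb, which differed most between the tissues in opposite directions among the subclass genes. Each run reads 5′ to 3′ on the gene's own strand and, except for Sst, covers the 250 bases before the annotated start. Capitals mark 4 motifs, the cAMP response element (CRE, TGACGTCA), its half-site (TGACG), the GC box (GGGCGG), which factors of the Sp1 family bind, and the TATA box (TATAAA).
Sst, the 30 bases chr16:23890874-23890903 (minus strand) around the CRE: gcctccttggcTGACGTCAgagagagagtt
Npy, chr6:49822460-49822709 (plus strand): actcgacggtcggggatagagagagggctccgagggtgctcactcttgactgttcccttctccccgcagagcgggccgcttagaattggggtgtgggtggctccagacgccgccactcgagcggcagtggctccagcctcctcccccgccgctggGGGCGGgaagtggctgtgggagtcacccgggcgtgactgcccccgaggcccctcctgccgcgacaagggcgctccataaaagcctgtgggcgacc
Vip, chr10:5638968-5639217 (plus strand): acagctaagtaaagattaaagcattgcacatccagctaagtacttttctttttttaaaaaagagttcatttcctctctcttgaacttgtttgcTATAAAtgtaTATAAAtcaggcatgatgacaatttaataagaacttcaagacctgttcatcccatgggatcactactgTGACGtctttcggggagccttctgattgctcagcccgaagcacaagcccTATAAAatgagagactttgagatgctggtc
Pvalb, chr15:78206401-78206650 (minus strand): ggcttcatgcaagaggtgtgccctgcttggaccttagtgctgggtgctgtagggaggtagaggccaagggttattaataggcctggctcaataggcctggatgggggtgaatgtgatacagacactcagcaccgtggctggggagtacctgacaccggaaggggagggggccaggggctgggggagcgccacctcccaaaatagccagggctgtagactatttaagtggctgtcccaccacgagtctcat
The CRE of Sst lies 48 to 41 bases before the start that RefSeq gives, which is inside the span that GENCODE gives the gene, and each of its strands holds a half-site. Sst was the only one of the 9 members with a CRE, a motif found in 1.55% of the 32851 start regions of the same length. Vip held a half-site 79 to 75 bases before the start and Gad2 one on the other strand, against 17.8% of all start regions. A GC box stood in a start region of Gad1, Npy, Lhx6 and Nkx2-1, 4 of the 9 members, and in 32.7% of all start regions. The 9 members have 12 start regions, since Lhx6 has 3 and Pvalb 2, so counts of members are not shares of start regions and a member with several starts had more chances to match. The TATA box was searched on the gene's strand only and the others on both. It occurred in Vip alone among the members, at 3 places, and in 7.59% of all start regions. The Pvalb run held none of the 4. These are matches of letters and not measured binding sites.

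Before any comparison, the labels were checked against the data. Trrap, the targeted gene, did not separate the groups over its whole length, with 136 to 173 CPM (a read count scaled to the size of its library) in the control cortices against 121 to 146 in the libraries labelled Trrap-FBΔ, and 140 to 151 against 135 to 148 in the striatum, so every direction given for a genotype follows the labels. The paper itself reports that Trrap was efficiently deleted at this age, from protein and qPCR measurements. The scaling used edgeR's TMM factors over all 16 libraries. The libraries labelled striatum did not stand out for genes of striatal projection neurons. The summed level of the 13 such genes ran from 447 to 1682 CPM in the control striata and from 660 to 1210 CPM in the control cortices, and 1 of the 13, Foxp2, was higher and 2, Foxp1 and Pdyn, were lower in the control striata. Ppp1r1b, which encodes DARPP-32 of these cells, was at 19.4, 97.5, 299 and 89.0 CPM in the control striata of mice 58, 63, 64 and 65, and at 51.7, 178, 185 and 58.4 CPM in those of control cortex, from mice 55, 58, 63 and 64. Genes of the thalamus and the hypothalamus, listed after these levels had been seen and so described without a test, were high in the same libraries instead. Tcf7l2, a transcription factor of thalamic neurons, was between 86.4 and 168 CPM in the 8 libraries labelled striatum and between 6.11 and 14.6 CPM in the 8 labelled cortex, and Pmch, the hypothalamic peptide gene for melanin-concentrating hormone, was between 45.2 and 71.9 against between 0.104 and 1.21 CPM. The summed level of the 6 thalamic genes was 336 to 502 CPM in the libraries labelled striatum and 150 to 191 CPM in those labelled cortex, and that of the 8 hypothalamic genes was 92.03 to 148 against 3.86 to 9.94 CPM. All 8 libraries labelled striatum carried this signal, so no comparison could be made without it, and its part in the results below was not tested.

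**Figure D1:**
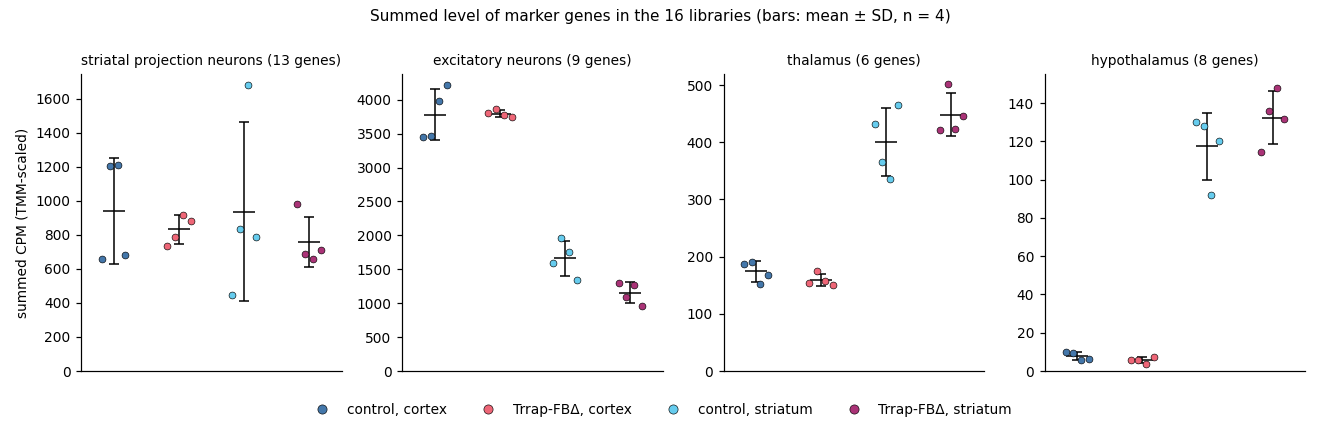
Summed level (CPM, TMM-scaled) of 4 lists of marker genes in each of the 16 libraries, by tissue label and genotype, with the mean and SD of 4 libraries as bars. The libraries labelled striatum and cortex overlap for the projection neuron list and separate fully for the other 3 lists. In the striatum the thalamic and hypothalamic sums are higher and the excitatory sum is lower. Of the 9 excitatory genes, 8 were lower and 1 higher in the control striata (edgeR, adjusted p under 0.05). The higher one was Slc17a6, at 201 to 340 CPM against 44.2 to 75.9 CPM in the control cortices.

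Per kilobase of the longest transcript, Sst was the most abundant member in every group, at 204 ± 30.6 CPM per kb (SD, n = 4) in the control cortices. It was followed there by Npy at 109 ± 20.7, Gad1 at 45.1 ± 7.69, Gad2 at 35.7 ± 5.06 and Slc32a1 at 25.9 ± 3.83 CPM per kb. Further down the order stood Vip at 11.7 ± 0.678, Lhx6 at 8.87 ± 0.523, Pvalb at 4.33 ± 0.897, Htr3a at 1.25 ± 0.444 and Nkx2-1 at 0.574 ± 0.254 CPM per kb. In this order the libraries of Gad1 and Gad2, of Gad2 and Slc32a1 and of Htr3a and Nkx2-1 overlapped, while all other neighbours were apart. In the control striata Sst at 179 ± 20.2 CPM per kb was followed by Gad1 at 75.1 ± 11.0, Gad2 at 73.8 ± 8.11 and Npy at 67.9 ± 13.7, which overlapped as neighbours. Then came Slc32a1 at 43.0 ± 6.88, Pvalb at 19.4 ± 2.10, Lhx6 at 7.23 ± 2.11, Vip at 3.09 ± 0.692, Nkx2-1 at 3.05 ± 0.417 and Htr3a at 1.14 ± 0.110 CPM per kb, of which only the neighbours Vip and Nkx2-1 overlapped. Pvalb ranked below Vip in the cortex and above it in the libraries labelled striatum. Gad1 has an annotated exon length of 7639 bases against 3601 in its longest transcript, and with the merged exons as length it fell below Gad2 and Slc32a1 in all 4 groups.

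**Figure D2:**
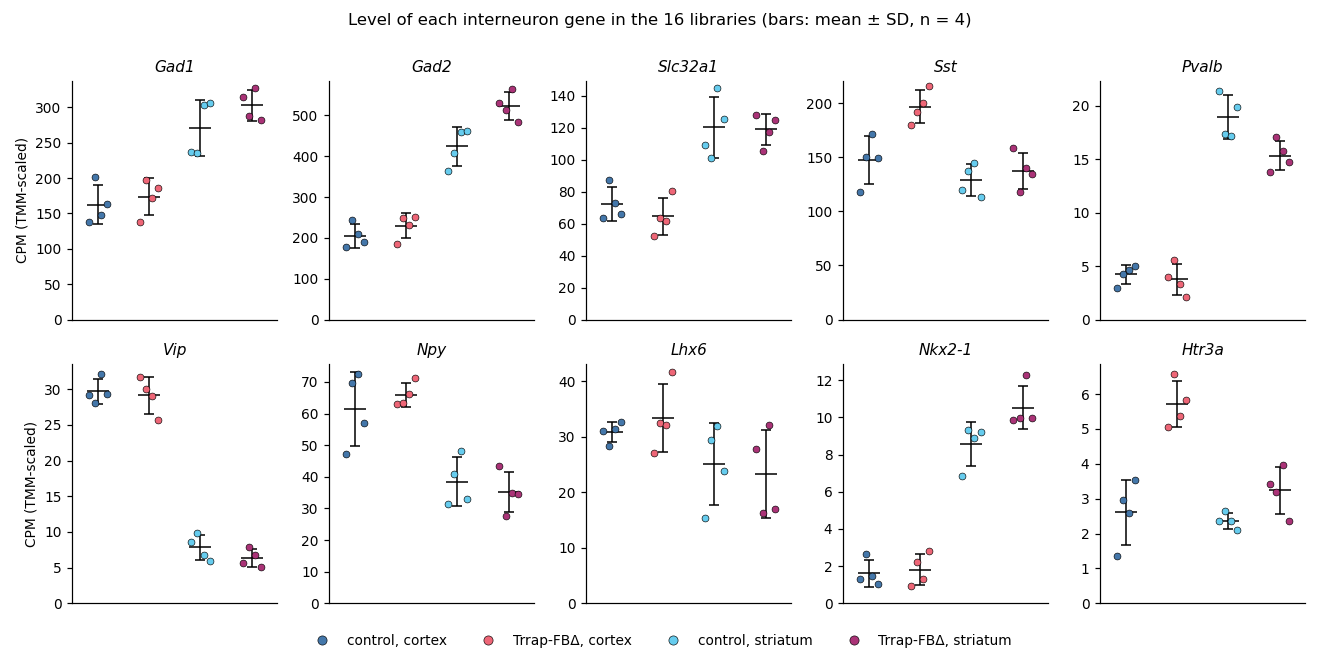
Level (CPM, TMM-scaled) of each of the 10 members in each library, one point per mouse and 4 per group, with the mean and SD as bars, and each vertical axis starting at 0 with its own scale. Htr3a and Sst are higher in all 4 Trrap-FBΔ cortices than in the control cortices, and Pvalb and Nkx2-1 are far higher, and Vip lower, in the libraries labelled striatum.

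In the cortex, 2 of the 10 members were higher in the Trrap-FBΔ libraries than in controls, the peptide gene Sst and the serotonin receptor gene Htr3a, and none was lower. This was tested with edgeR's quasi-likelihood test in the 8 cortical libraries, with Benjamini-Hochberg adjustment over all 18268 genes tested and a threshold of 0.05, which called 33.3% of all genes, 15.7% as higher and 17.6% as lower. The members' count of 2 of 10 was therefore below the share of all genes. Their median log2 fold change was 0.10, against 0.0010 over all genes.

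Htr3a was at 1.35, 2.96, 2.60 and 3.54 CPM in the 4 control cortices (mice 55, 58, 63 and 64). The Trrap-FBΔ cortices of mice 57, 59, 60 and 61 had 5.05, 6.58, 5.38 and 5.84 CPM. All 4 mutant libraries were above all 4 controls, and control mouse 55 was the lowest. The means were 2.61 ± 0.925 and 5.71 ± 0.666 CPM (SD, n = 4), and the log2 fold change was 1.10 (SE 0.20, adjusted p = 0.0020, edgeR), a 2.15-fold difference. The gene is sparse at this depth, with 37 to 137 reads per control cortex and 206 to 280 per mutant cortex.

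Sst was at 118, 150.0, 171 and 149.8 CPM in the same control cortices and at 180.1, 192, 199.98 and 216 CPM in the Trrap-FBΔ cortices. The groups did not overlap, and the gap between the highest control, mouse 63, and the lowest mutant, mouse 57, was small beside the spread within groups. The means were 147 ± 22.1 and 197 ± 15.03 CPM (SD, n = 4), with a log2 fold change of 0.42 (SE 0.095, adjusted p = 0.0061, edgeR). Of the 10 members these were the only 2 whose cortical groups did not overlap, as against 32.7% of all genes tested. The control cortices of mice 58 and 63 stood apart from the other control cortices by projection neuron genes, at 1205 and 1210 CPM in sum. Without both, Sst was still 0.55 higher (adjusted p = 0.0040) and Htr3a 1.17 higher (adjusted p = 0.014) on the log2 scale in edgeR's test.

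None of the other members passed the test in the cortex. The general GABAergic genes lay at 138 to 201 CPM for Gad1, 177 to 244 for Gad2 and 63.6 to 87.4 for Slc32a1 in the control cortices, and at 137 to 198, 186 to 252 and 52.0 to 80.5 CPM in the Trrap-FBΔ cortices. Their log2 fold changes were 0.09 (SE 0.12), 0.16 (SE 0.11) and -0.17 (SE 0.12), with adjusted p of 0.59, 0.28 and 0.33 from edgeR. The groups overlapped for all 3 of them. For Npy, which shares many of its cells with Sst, the controls spanned 47.1 to 72.4 CPM and the mutants 63.03 to 71.1 CPM, with a log2 fold change of 0.10 (SE 0.11). Npy passed the threshold without the control cortices of mice 58 and 63 (log2 fold change 0.34, adjusted p = 0.017, edgeR), and not under any other setting tried. Vip differed by -0.03 (SE 0.073) on the log2 scale, with controls of 28.1 to 32.1 and mutants of 25.7 to 31.8 CPM. Lhx6 differed by 0.11 (SE 0.11), with controls of 28.4 to 32.7 CPM and the widest spread in the mutants, 27.1 to 41.7 CPM. Pvalb and Nkx2-1 were scarce in the cortex, at 2.13 to 5.58 and at 0.944 to 2.79 CPM over all 8 libraries, and their log2 fold changes of -0.19 (SE 0.25) and 0.16 (SE 0.35) had the largest errors of the set.

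**Figure D3:**
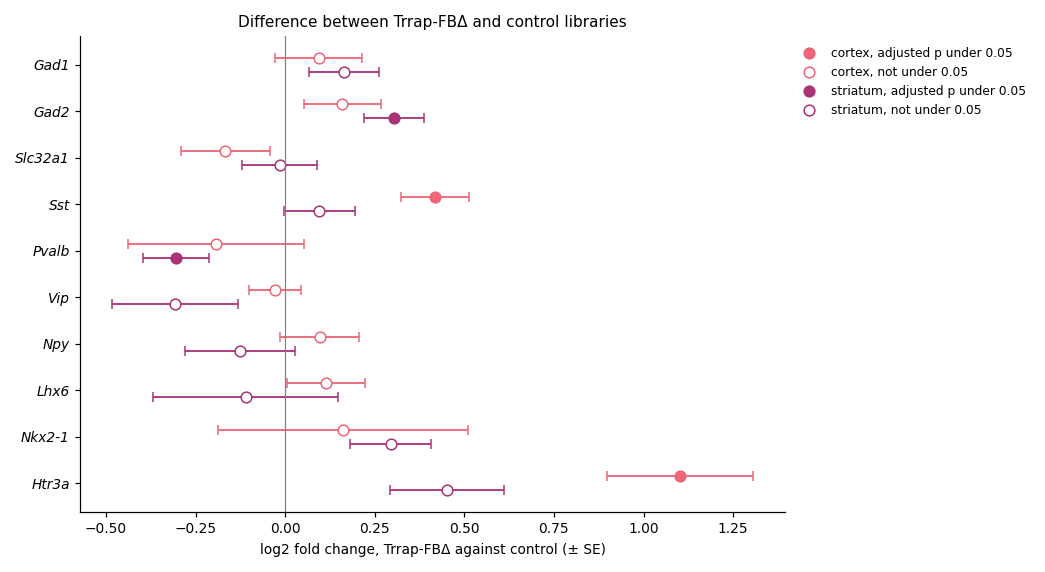
Log2 fold change between Trrap-FBΔ and control libraries for each member, with its standard error as a bar, in the cortex and in the libraries labelled striatum (edgeR). Filled points have an adjusted p under 0.05, which holds for Sst and Htr3a in the cortex and for Gad2 and Pvalb in the striatum.

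In the libraries labelled striatum, Gad2 was higher and Pvalb lower in the Trrap-FBΔ group, and the other 8 members did not pass. The same test called 30.2% of 18872 genes in this tissue, 14.4% as higher and 15.8% as lower, so 2 of 10 members was again below the share of all genes. The median log2 fold change of the members was 0.04, against -0.0055 over all genes.

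Gad2 was at 365, 409, 460.3 and 462 CPM in the control striata of mice 58, 63, 64 and 65 and at 529, 514, 566 and 485 CPM in the Trrap-FBΔ striata of mice 57, 59, 60 and 61. The groups did not overlap, with mutant mouse 61 closest to the controls. The log2 fold change was 0.30 (SE 0.084, adjusted p = 0.020, edgeR). Pvalb was at 21.4, 17.4, 17.1 and 19.9 CPM in the controls and at 13.8, 17.0, 15.7 and 14.8 CPM in the mutants. The groups were separate by a narrow margin, between control mouse 64 and mutant mouse 59, and the log2 fold change was -0.30 (SE 0.091, adjusted p = 0.029, edgeR). With single libraries left out, both differences kept their direction and about their size, while the adjusted p moved across the threshold. Without Trrap-FBΔ mouse 57 or mouse 60 the log2 fold change of Gad2 was 0.30 and 0.26, with an adjusted p of 0.0515 and 0.060 in edgeR's test. Without control mouse 58 or 65 or Trrap-FBΔ mouse 57, 60 or 61 that of Pvalb was between 0.054 and 0.084, at log2 fold changes of -0.32 to -0.24, and with sex as a covariate it was 0.12, at -0.25. Without the control striata of mice 58 and 64, which had the lowest and the highest sum of projection neuron genes, none of the 10 members passed, with log2 fold changes of 0.27 for Gad2 (adjusted p = 0.066) and -0.28 for Pvalb (adjusted p = 0.083, edgeR).

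Nkx2-1 was the third member whose striatal groups did not overlap, at 6.83, 9.31, 8.91 and 9.22 CPM in the controls and 9.88, 9.99, 12.3 and 9.97 CPM in the mutants, while 31.6% of all genes tested had groups of this kind. Its log2 fold change of 0.29 (SE 0.11) had an adjusted p of 0.074 in edgeR's test. Htr3a, at 2.36, 2.65, 2.37 and 2.09 CPM in the controls and 3.43, 3.20, 3.96 and 2.35 CPM in the mutants, overlapped through mutant mouse 61 alone. Its log2 fold change was 0.45 (SE 0.16, adjusted p = 0.055, edgeR). It passed with DESeq2 (adjusted p = 0.045), with upper-quartile scaling in edgeR (0.049) and without mutant mouse 61 (0.012, edgeR). For the remaining members the groups overlapped, with log2 fold changes of 0.16 for Gad1 (SE 0.099), -0.015 for Slc32a1 (SE 0.10), 0.10 for Sst (SE 0.098), -0.31 for Vip (SE 0.18), -0.13 for Npy (SE 0.15) and -0.11 for Lhx6 (SE 0.26). Lhx6 spread widely within each striatal group, from 15.3 to 31.9 CPM in controls and from 16.2 to 32.2 CPM in mutants.

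Marker genes of other neurons moved with genotype in the same libraries. The summed level of 9 excitatory neuron genes was 1346 to 1954 CPM in the control striata and 961 to 1298 CPM in the Trrap-FBΔ striata, without overlap, and 5 of the 9 were lower, among them Slc17a7, the vesicular glutamate transporter of cortical neurons (log2 fold change -0.88, SE 0.21, adjusted p = 0.011, edgeR). Tcf7l2 was at 86.4 to 138 CPM in the control striata and 140.0 to 168 CPM in the mutant ones. Prkcd, another of the 6 thalamic genes, went the other way, at 35.7 to 39.4 CPM in the control and 26.1 to 29.9 CPM in the mutant striata. The summed level of the 6 overlapped between genotypes, at 336 to 466 CPM in the control and 422 to 502 CPM in the mutant striata. The part of these differences in the results for Gad2 and Pvalb was not tested. In the cortex the summed excitatory genes overlapped, at 3452 to 4219 CPM in controls and 3747 to 3863 CPM in mutants, as did the summed projection neuron genes, at 660 to 1210 and 736 to 919 CPM.

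Whether the genotype effect differed between tissues was tested with the interaction term of edgeR over all 16 libraries. None of the 10 members passed, against 0.437% of the 19438 genes tested. At an unadjusted p under 0.05 there were 2 of the 10 members, as against 2347 of the 19438 genes. With DESeq2, limma-voom or the mouse as a block the count of members that passed the adjusted threshold was also 0. The effect on Htr3a was 0.66 smaller in the striatum than in the cortex on the log2 scale (SE 0.29, adjusted p = 0.37), and that on Sst was 0.32 smaller (SE 0.15, adjusted p = 0.40). A change called in one tissue and not in the other was thus not shown to differ between them for any of Sst, Htr3a, Gad2 and Pvalb. The cortical and striatal comparisons share mice, since 7 of the 9 mice gave both tissues.

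In controls, 5 members were higher in the libraries labelled striatum than in the cortex and 2 were lower, 7 of 10 in all, where edgeR's test called 40.4% of 18284 genes, 20.3% as higher and 20.1% as lower. In the Trrap-FBΔ mice all 10 members passed, 5 in each direction, where the test called 54.7% of 18872 genes, 27.4% as higher and 27.4% as lower. With upper-quartile scaling the calls over all genes of the latter comparison split into 6318 higher and 4126 lower in place of 5166 and 5163. As given above, marker genes of the thalamus and the hypothalamus were high in the libraries labelled striatum, and the part of this in these differences was not tested.

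The general GABAergic genes were all higher in the libraries labelled striatum. In controls the means rose from 163 ± 27.7 to 270.4 ± 39.7 CPM for Gad1 (log2 difference 0.74, SE 0.13), from 205 ± 29.1 to 424 ± 46.6 CPM for Gad2 (1.05, SE 0.11) and from 72.4 ± 10.7 to 120.2 ± 19.2 CPM for Slc32a1 (0.73, SE 0.13; SD, n = 4 for each mean). The groups did not overlap for any of the 3, and the adjusted p were 0.0012, 4.4e-05 and 9.9e-04 (edgeR). In the Trrap-FBΔ mice the log2 differences were 0.80, 1.19 and 0.88.

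The largest rises were those of Nkx2-1 and Pvalb. Nkx2-1 was at 1.32, 2.65, 1.45 and 1.03 CPM in the control cortices and, as given above, at 6.83 or more in every control striatum. Its log2 difference was 2.39 (SE 0.24, adjusted p = 4.0e-05, edgeR) in controls and 2.52 (SE 0.24) in the mutants. Pvalb was at 2.997, 4.26, 4.65 and 5.01 CPM in the control cortices and at 17.1 or more in the control striata, a 4.45-fold difference (log2 difference 2.15, SE 0.14, adjusted p = 4.4e-06, edgeR), and differed by 2.04 (SE 0.20) in the mutants. For both genes every control striatum was above every control cortex.

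Vip showed the opposite. It was at 29.2, 28.1, 32.1 and 29.3 CPM in the control cortices and at 8.63, 9.89, 6.83 and 5.997 CPM in the control striata, a log2 difference of -1.92 (SE 0.14, adjusted p = 6.8e-06, edgeR), and -2.20 (SE 0.12) in the mutants. Npy was lower too, at a mean of 38.4 ± 7.75 against 61.5 ± 11.7 CPM (SD, n = 4), by -0.68 on the log2 scale (SE 0.16, adjusted p = 0.0060, edgeR), although its highest control striatum, mouse 64, lay above its lowest control cortex, mouse 55. Sst, Lhx6 and Htr3a did not pass in controls, with log2 differences of -0.19 (SE 0.11), -0.29 (SE 0.18) and -0.16 (SE 0.23). In the mutants they were -0.52 (SE 0.082, adjusted p = 2.0e-04), -0.52 (SE 0.20, adjusted p = 0.048) and -0.82 (SE 0.15, adjusted p = 4.8e-04) in edgeR's test. The difference of Lhx6 kept its direction but passed the threshold neither with DESeq2 (-0.52, adjusted p = 0.12), nor with upper-quartile scaling (-0.45, 0.080), nor with all 16 libraries in 1 fit (-0.52, 0.055). Nor did it pass without mutant cortex 59, 60 or 61 or mutant striatum 59 or 61, with log2 differences of -0.54 to -0.38. Sst passed in controls without the control cortex of mouse 55 (adjusted p = 0.035, log2 difference -0.29). Both comparisons of the tissues use the libraries of the genotype comparisons.

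**Figure D4:**
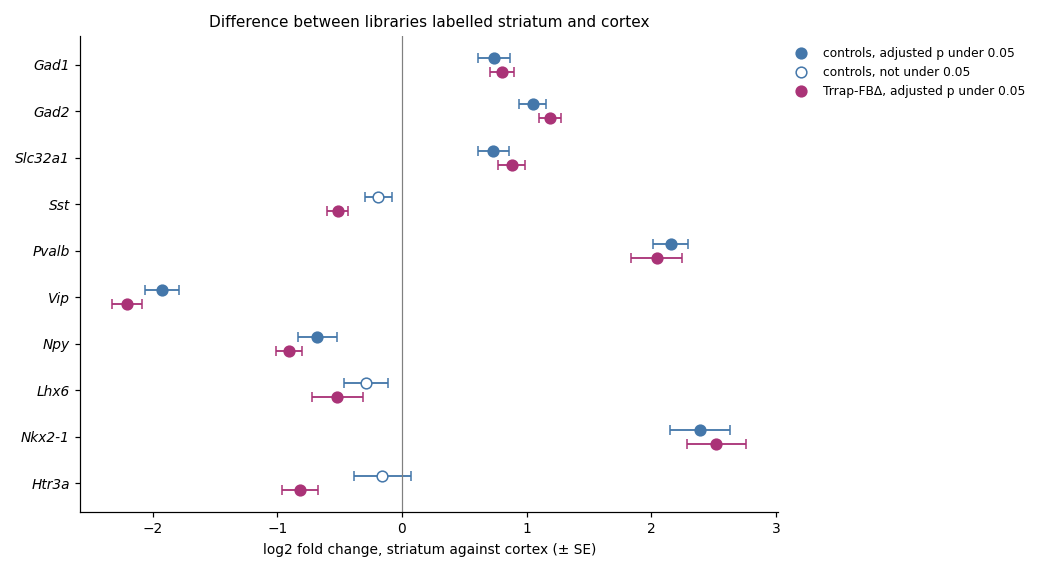
Log2 difference between libraries labelled striatum and cortex for each member, with its standard error as a bar, in the control and in the Trrap-FBΔ libraries (edgeR). Filled points have an adjusted p under 0.05: Nkx2-1 and Pvalb lie above 2 and Vip lies lowest in both genotypes.

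Within the groups, some members rose and fell together from library to library. As a description, Pearson's r was taken over the deviations of log2 CPM from the 4 group means in the 16 libraries, which share mice between tissues as well as their depth and dissection. It was 0.93 for Sst and Npy, the highest of the 45 pairs, with 0.90 in the 8 cortical and 0.96 in the 8 striatal libraries. It was 0.92 for Gad1 and Gad2, 0.84 for Gad2 and Nkx2-1, and 0.78 for Slc32a1 with either Gad gene. The lowest values were -0.68 for Slc32a1 and Vip and -0.50 for Gad1 and Vip. Over the 16 libraries Pvalb had no positive value above 0.43, which it reached with Htr3a, but its values differed between the tissues. They were -0.94 with Npy and -0.89 with Sst over the striatal libraries, against 0.11 and 0.098 over the cortical ones. With Vip the value was 0.67 over the cortical and 0.29 over the striatal libraries. For Nkx2-1 the values with Slc32a1 differed between the tissues, at 0.92 over the cortical and 0.15 over the striatal libraries. The values over cortical and striatal libraries were 0.90 and 0.54 for Gad2 with Slc32a1, and 0.81 and 0.55 for Gad1 with Nkx2-1. Those of Gad1 with Gad2, Gad1 with Slc32a1 and Gad2 with Nkx2-1 were at least 0.76 in both.

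**Figure D5:**
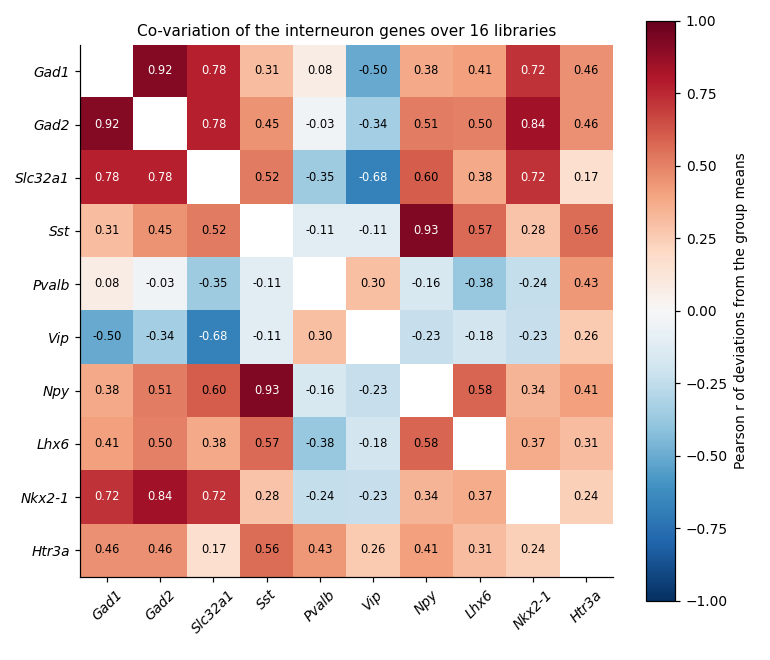
Pearson's r between each pair of members over the deviations of log2 CPM from the 4 group means in 16 libraries. The general GABAergic genes and Nkx2-1 form one block of values between 0.72 and 0.92, Sst and Npy a pair at 0.93, and Vip is negative with 7 of the other 9 members.

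Among the 14991 genes with a mean of at least 50 counts, the search for the genes most alike gave each member's 3 highest values of r. For the deviations, Gad2 had Gad1 (0.92), Shisal1 (0.90) and Gpr83 (0.89), and Gad1 had Shisal1 (0.92), Gad2 (0.92) and Nrxn3 (0.89). Slc32a1 had Ntn1 (0.93), Cpne5 (0.92) and Zfp503 (0.91). Sst had Npy (0.93), Dph1 (0.92) and Fkbp1a (0.91), and Npy had Arl5c (0.93), Sst (0.93) and Actn2 (0.92). For Lhx6, Nsg2 (0.89) and Sowaha (0.88) were among the 3. Nkx2-1 had Ecel1 (0.97), Ush1c (0.96) and C130060K24Rik (0.93). Vip had Neurod6 (0.89), a gene of cortical excitatory neurons, Kcnt2 (0.89) and Camk1 (0.89). Pvalb had Mia2 (0.88), Arl8b (0.87) and Dpy19l1 (0.87), and Htr3a had R3hdm1 (0.88), Ppp4r4 (0.88) and Gm14004 (0.87). All these are the top values of a search over 14991 genes in only 16 libraries. How high such a search reaches by chance was not assessed.

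Taken over the levels themselves, which include the differences between tissues and genotypes, the 3 genes most alike were Gad2 (0.98), Ano1 (0.97) and Fam196a (0.97) for Gad1, and Rtl5 (0.99), Peg10 (0.99) and Ano1 (0.99) for Gad2. They were Ntn1 (0.98), Tacr1 (0.97) and Fam196a (0.97) for Slc32a1, and Ecel1 (0.99), Peg10 (0.99) and Sfta3-ps (0.99) for Nkx2-1. Sfta3-ps lies beside Nkx2-1 on the same strand of chromosome 12. Vip was most alike to the transcription factor gene Satb1 (0.99), Rassf3 (0.99) and A830009L08Rik (0.99). Sst had Dph1 (0.96), Wrap73 (0.94) and Rin1 (0.94), Npy had Kcnj4 (0.97), Arhgap10 (0.97) and Ctdnep1 (0.97), and for Lhx6 the 3 included Gm43517 (0.87) and Sowaha (0.84). Pvalb had D930048N14Rik (0.97), Mbnl1 (0.97) and Impact (0.97), and Htr3a had Chp1 (0.91), 4930480K23Rik (0.91) and Krt73 (0.91). For all members but Lhx6 the highest r over levels was at least 0.91.

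Other genes of the GABA pathway were taken as a list of 6 enzymes and transporters. In the cortex 1 of the 6 was higher and 1 lower in the Trrap-FBΔ libraries, and in the striatum 2 were higher. Of all genes tested, 33.3% were called in the cortex and 30.2% in the striatum. Aldh5a1, which encodes succinate semialdehyde dehydrogenase, the last enzyme of GABA breakdown, was higher in both tissues, at 152 ± 4.39 against 181 ± 4.16 CPM in the cortex (SD, n = 4; log2 fold change 0.25, SE 0.040, adjusted p = 8.5e-04, edgeR) and by 0.26 in the striatum (SE 0.077, adjusted p = 0.029). The GABA transporter gene Slc6a13 was higher by 0.44 in the striatum (adjusted p = 0.014), and Slc38a1, a glutamine transporter gene, was lower by -0.24 in the cortex (adjusted p = 0.0074). The 6 had a median log2 fold change of 0.07 (cortex) and 0.23 (striatum).

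Of the 14 interneuron transcription factors other than Lhx6 and Nkx2-1, none passed in the cortex, where 33.3% of all genes did. In the striatum, where 30.2% of all genes passed, 1 of the 14 did, Npas1 (log2 fold change 0.30, SE 0.086, adjusted p = 0.024, edgeR). The medians of the 14 were -0.07 and -0.02. The summed level of the 14 overlapped between genotypes, at 462 to 481 CPM in the control and 431 to 485 CPM in the mutant cortices. Satb1 alone had a mean of 216 CPM in the control cortices, against 476 CPM for the sum, so the sum says little about the scarcer genes.

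Among 15 further markers of subclasses from the medial eminence, 2 were higher and 1 lower in the mutant cortices, and 4 were lower in the mutant striata. Of all genes tested, 15.7% were called higher and 17.6% lower in the cortex, and 14.4% higher and 15.8% lower in the striatum. Cort, which encodes cortistatin, a peptide close to somatostatin that is made in some of the same cells, was at 5.74, 6.67, 7.11 and 7.57 CPM in the control cortices and 11.5, 10.4, 11.7 and 12.0 CPM in the mutant cortices. The groups were well apart, with a log2 fold change of 0.75 (SE 0.091, adjusted p = 1.7e-04, edgeR), while in the striatum it was -0.37 (SE 0.27, adjusted p = 0.34) with overlapping groups. The other one that was higher in the cortex, Crhbp, which encodes the binding protein of corticotropin-releasing hormone, differed by 0.38 (SE 0.090, adjusted p = 0.0074) and is named, like Egln3, Grin3a, Kcnc2 and Erbb4, after its values were seen. Chodl, a marker of long-range Sst neurons, was lower in both tissues, by -0.53 (adjusted p = 0.017) and -0.53 (adjusted p = 0.014), and Grin3a, Kcnc2 and Erbb4 were the other genes lower in the striatum. The medians of the 15 were -0.14 (cortex) and -0.18 (striatum).

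Among 13 further markers of subclasses from the caudal eminence, 1, Egln3 (log2 fold change -0.20, SE 0.062, adjusted p = 0.025, edgeR), was lower in the mutant cortices, where 17.6% of all genes were. In the mutant striata, where 15.8% of all genes were called lower and 14.4% higher, 6 of the 13 were lower and 1 higher. The lower ones included Cnr1, the cannabinoid receptor gene (log2 fold change -0.60, SE 0.097, adjusted p = 0.0017, edgeR), and Lamp5 (-0.65, SE 0.20, adjusted p = 0.035), both of which are also expressed in excitatory neurons. Tac2, the neurokinin B gene, was the one that was higher, at 4.41 to 7.18 CPM in the control and 8.65 to 11.6 CPM in the mutant striata (0.84, SE 0.14, adjusted p = 0.0020). The medians of the 13 were -0.09 and -0.29. None of the genes of these 4 lists, from the GABA pathway to the caudal eminence, passed the test of the difference between tissues.

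The lists for other cells gave the setting of these results. None of 6 cholinergic genes changed with genotype in either tissue, and all 6 were higher in the control striata than in the control cortices. In the cortex 5 of 6 microglial, 6 of 6 oligodendrocyte lineage and 5 of 5 endothelial genes were lower in the mutants, and in the striatum 5, 3 and 1 of them were. Of all genes tested, 17.6% were called lower in the cortex and 15.8% in the striatum. The astrocyte list was mixed, with 2 of 6 higher and 2 lower in the cortex and 2 higher and 1 lower in the striatum. Of 4 choroid plexus genes none changed in the cortex and 1, Otx2, was higher in the striatum. Of the 13 projection neuron genes 1, Pdyn, was lower in the cortex and none changed in the striatum, and of the 9 excitatory genes 2 were lower in the cortex. The part of any of these cells in the members' values was not tested.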

How the data were processed

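Cortices and striata of mice aged 10 days were sequenced as polyadenylated, stranded mRNA libraries. The authors aligned the reads to GRCm38 with STAR 2.5.4b and counted them per Ensembl gene with featureCounts 1.5.0 in stranded mode, and the deposited table holds raw counts, with 28743866 to 48761429 per library. All 16 columns were matched to labelled samples and 0 were left over. Symbols were found for 53706 of 53801 IDs.

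Counts were tested with edgeR 4.0.16 (R 4.3.3, filterByExpr, TMM, quasi-likelihood test, two-sided) in 5 comparisons, with Benjamini-Hochberg adjustment over all genes tested and a threshold of 0.05. DESeq2 1.42.0, limma-voom (limma 3.58.1), other scaling factors, no filter, sex as a covariate, a common fit and leaving out each library were the alternatives. Leaving out the control cortices of mice 58 and 63 and the control striata of mice 58 and 64, and the thalamic and hypothalamic lists, were added after seeing the data. The tests were also run on data simulated for the cortical and interaction layouts, with the same dispersion (spread between libraries) for every gene. Fewer genes were changed there than were called in the cortex. The other comparisons were not simulated, so this run does not show how the tests perform on these data. Positions and lengths came from GENCODE M21, and start regions from RefSeq.

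The members and lists were chosen with earlier results of these data known. The genes named were all members, list genes called in both tissues (up to 5 a list) or among the 3 largest of their list in 1 tissue, and each member's 3 most alike genes. Some genes that this rule names are not reported here. For co-variation, log2(CPM + 0.1) was used over genes with a mean of at least 50 counts. The 7 mice that gave both tissues pair the samples: deviations from the group means correlated at 0.121 to 0.365 within a mouse and at -0.265 to 0.130 between 25 pairs of different mice. No pair of libraries agreed within counting noise. Each library within a group is 1 mouse.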

Additional observations from a re-analysis of the deposited data

Results flagged for a closer look

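In 2 of the 40 groups of 4 libraries, 1 library stood apart from the other 3 by Dixon's test, which chance passes in about 1 group in 20. Both concern Nkx2-1 in the libraries labelled striatum. The lowest control striatum, mouse 58, was at 6.83 CPM, with a ratio of gap to range of 0.838, and the highest Trrap-FBΔ striatum, mouse 60, was at 12.3 CPM, with a ratio of 0.953. The same control library of mouse 58 had the lowest summed level of projection neuron genes in its group, 447 CPM, and the part of this in the value of Nkx2-1 was not tested.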

How the results depend on the processing

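In the cortex, 2 members passed in all settings tried except without the control cortices of mice 58 and 63, where 3 passed. In the striatum the count of 2 was 3 with DESeq2 and 3 with upper-quartile scaling, where Htr3a was added, 1 with sex as a covariate, 1 with all 16 libraries in 1 fit, 0 without the control striata of mice 58 and 64, and 0 to 2 when single libraries were left out (0 without Trrap-FBΔ mouse 57 or 60). With the mouse as a replicate block, the paired counts were 0 for the interaction and 7 and 10 for the tissues of controls and mutants, and the block changed no call. Some log2 fold changes that had not passed turned their sign, and the cause was not tested. Slc32a1 in the striatum was 0.0069 with upper-quartile scaling, 0.063 with sex as a covariate and 0.069 without the 2 control striata. In the interaction, Pvalb was 0.079 with the replicate block, and without the 4 control libraries Gad1 was -0.038, Gad2 -0.047 and Nkx2-1 -0.47. With single libraries left out, the cortical ranges were -0.43 to 0.019 for Pvalb, -0.068 to 0.035 for Vip, -0.0094 to 0.18 for Npy, -0.0058 to 0.21 for Lhx6 and -0.13 to 0.53 for Nkx2-1. The striatal ranges were -0.089 to 0.087 for Slc32a1, -0.24 to 0.0034 for Npy and -0.31 to 0.026 for Lhx6. Those of the interaction were -0.050 to 0.14 for Gad1, -0.31 to 0.14 for Pvalb and -0.24 to 0.45 for Nkx2-1, and that of Htr3a between the control tissues was -0.36 to 0.016. Without TMM scaling, the means of Gad2 in the Trrap-FBΔ striata (561 CPM) and of Vip (27.9 CPM) and Lhx6 in the control cortices moved by more than 1 SD.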

Other observations

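Ratios of counts within a library, which do not depend on scaling, gave some values outside the comparisons above. There were 2.16 to 2.63 Sst reads per Npy read in the control cortices and 2.86 to 3.03 in the Trrap-FBΔ cortices, without overlap. In the libraries labelled striatum the ratio was 2.99 to 3.81 in controls and 3.64 to 4.25 in mutants, and the groups overlapped. There were 0.0415 to 0.0505 Cort reads per Sst read in the control cortices and 0.0541 to 0.0638 in the mutant cortices. In the striatum this ratio overlapped, at 0.0147 to 0.0253 in controls and 0.0106 to 0.0221 in mutants. The ratio of Sst to Lhx6 reads overlapped between genotypes in both tissues, at 3.79 to 5.47 in the control and 5.17 to 6.64 in the mutant cortices. In the striata it was 4.53 to 7.83 and 4.34 to 7.92. How often ratios of other genes separated the genotypes was not counted. The ratio of Gad2 to Gad1 reads was 1.17 to 1.41 in the control cortices, 1.26 to 1.35 in the mutant cortices, 1.51 to 1.74 in the control striata and 1.68 to 1.79 in the mutant striata.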
